A study of Homo sapiens with 2 samples.

Results

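ETS factors are transcription factors that share a DNA-binding domain recognising a core with the letters GGAA. In blood cells they act beside GATA factors: FLI1 works with GATA1 at megakaryocyte promoters, whereas PU.1, the product of SPI1, and GATA1 hold each other in check when red cell and megakaryocyte fates are separated from myeloid fates. Binding of GATA1 at the ETS genes themselves was examined here in Meg-01 cells, a human megakaryoblastic leukemia line. The 8 genes were chosen by symbol as the ETS factors best known in blood (FLI1, ERG, ETS1, SPI1, SPIB, ELF1, ETV6 and GABPA), out of 17279 genes named by the arrays.

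The study hybridized DNA pulled down by a GATA1 antibody directed at its C-terminus (the IP, labeled with Cy5) together with DNA pulled down with normal goat IgG (Cy3). Both came from untreated parental cells, with chromatin sonicated to an average of 500 to 1000 bp, and both were amplified after linker ligation. The promoter set was spread over 2 arrays, chIP1 and chIP2, that hold different probes, and all 8 genes lie on chIP2. Every probe thus has 1 reading from 1 hybridization, without a second culture or a dye swap, so no p-value could be given and every SD below is a spread between neighboring probes. The arrays measure genomic DNA, so the labeled cell type could not be checked against marker expression, and transcript levels of these genes were not measured here.

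Values are log2(IP/IgG) from the processed intensities of the 2 channels, shifted so that the array median is 0. Means over 3 adjacent probes (windows) were read, and a window at or above 1 (2-fold toward the IP) was called enriched, or at or below -1 was called IgG-side. Of 308 probes annotated to the 8 genes, 307 were kept, and all 307 were well above background in both channels. The lost probe lies at -4105 bp from the start of FLI1 and was well above background in neither channel. The 307 probes gave 284 windows, between 19 for GABPA and 69 for ERG. The whole chIP2 array was dim, with median raw signals of 544 (IP) and 440 (IgG), while negative control spots had 340 and 303, and the SD over its 236864 kept probes was 0.97. A control probe spotted 480 times on chIP2 had an SD of 0.04. Array coordinates are given as the files list them, on a genome build that is not given in the sources used here.

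At 4 of the 8 genes, GATA1 IP signal exceeded IgG by at least 2-fold within 500 bp of an annotated start: FLI1, GABPA, SPI1 and ERG. The highest window there was 1.95 at FLI1, 1.68 at GABPA, 1.49 at SPI1 and 1.45 at ERG. The other genes had lower windows at their starts, with 0.86 at ELF1, 0.38 at SPIB, 0.26 at ETV6 and 0.07 at ETS1. Of all 16445 genes with a window in that position, 24.5% were called. That share was not matched for the number of windows per gene. Among the called genes, these numbered 11 at ERG over both its starts, 8 at SPI1 and 4 each at FLI1 and GABPA. Among single windows, 16 of 51 (31.4%) centered within 500 bp of a start of the 8 genes were enriched, against 10.4% of all such windows of the arrays. These 16 windows overlap one another within each of 4 loci, so they are far fewer than 16 separate measurements. The zone within 500 bp of a start was not among the readings planned beforehand.

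**Figure D1:**
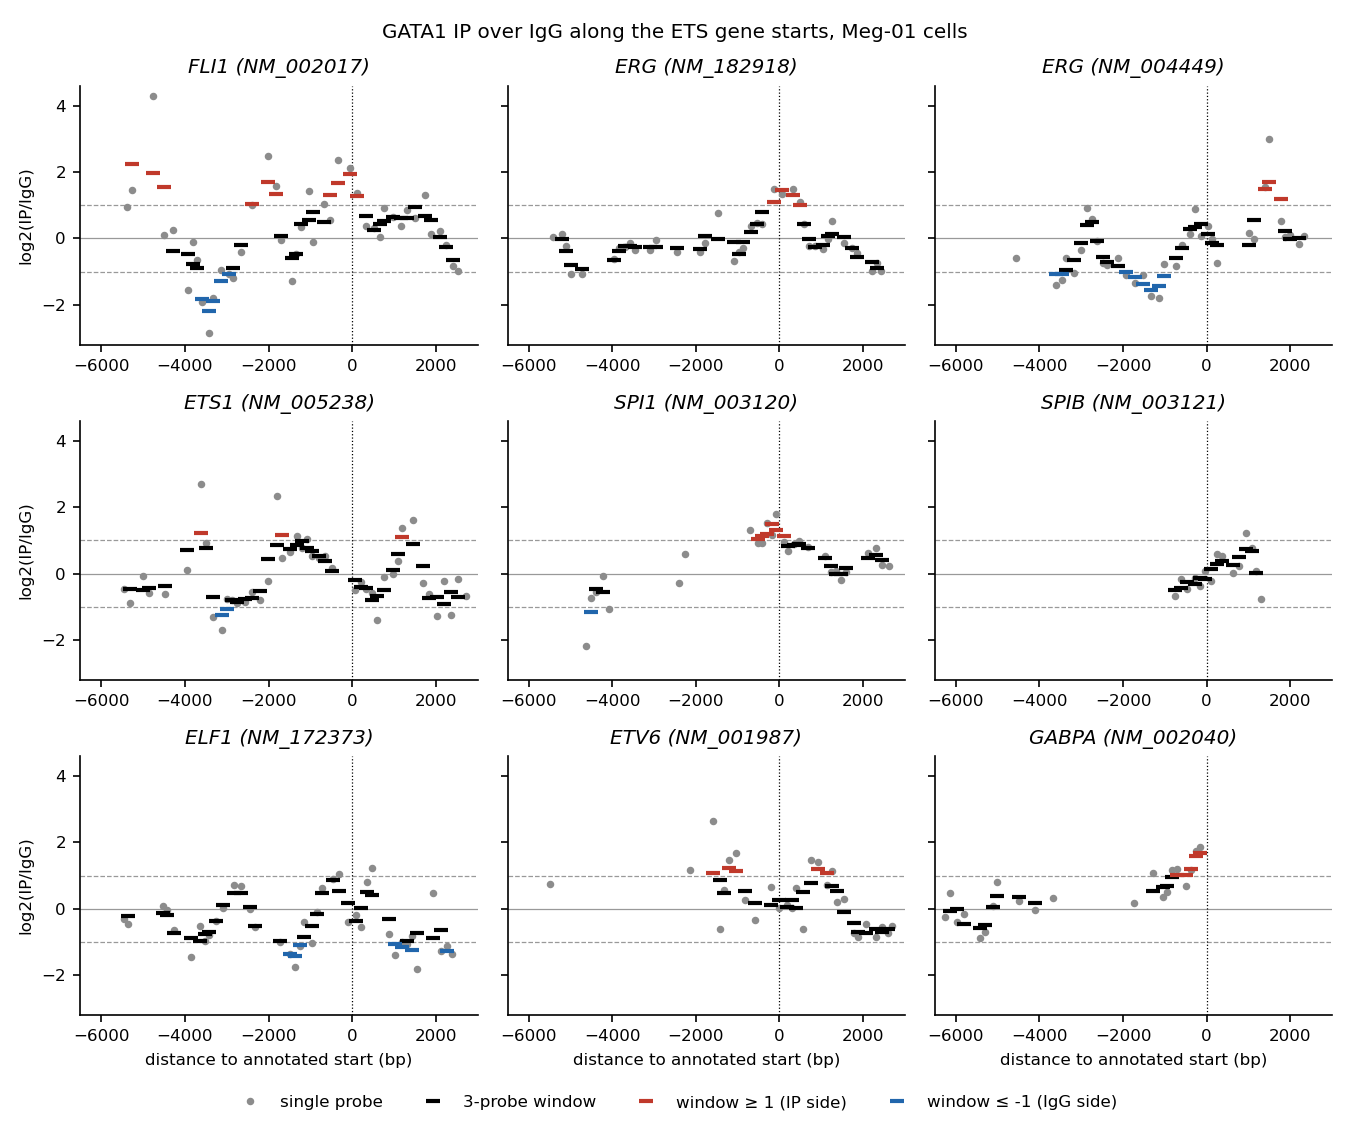
Log2(IP/IgG) of single probes (grey points) and of 3-probe windows (bars) against distance in bp to the annotated start (dotted line), in 9 panels for the 8 genes, with both annotated starts of ERG; negative distances are upstream, and dashed lines mark 1 and -1. Red bars are enriched windows and blue bars IgG-side windows. The bars rise above 1 at the starts of FLI1, SPI1, GABPA and the first of the ERG starts, and lie below 1 at the starts of ETS1, SPIB, ELF1 and ETV6.

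Promoter sequences from RefSeq on GRCh38.p14, from 250 bases before to 50 after a start, were matched by symbol for 5 of the 8 genes, with 10 starts in all. These starts were not matched by accession to the starts on the array, and the builds may differ. GATA sites were searched as AGATAA, as AGATAG, as TGATAA and as TGATAG on both strands. ETS sites were searched only as CCGGAA on both strands, which extends the GGAA core. GGAA alone was not searched, so a promoter without a match may still hold it. The GATA letters occur in 25.0% of the 35116 promoters of the same length and the ETS letters in 17.2%. They do not overlap each other in the sequences below. The promoter of GABPA, whose array probes were enriched up to the start, holds no GATA letters but 1 match to CCGGAA, read as TTCCGG at -65 to -60 bp. One of 4 ERG promoters is shown because it holds GATA letters, read as TTATCT at -109 to -104 bp, and an overlapping ERG promoter holds the same site. SPIB, which had no called window, is shown for contrast and holds neither. The sequences are GABPA at chr21:25734722-25735021 (plus strand), ERG at chr21:38498428-38498727 (minus strand) and SPIB at chr19:50418688-50418987 (plus strand), each written 5′ to 3′ with the matched letters in capitals.
GABPA: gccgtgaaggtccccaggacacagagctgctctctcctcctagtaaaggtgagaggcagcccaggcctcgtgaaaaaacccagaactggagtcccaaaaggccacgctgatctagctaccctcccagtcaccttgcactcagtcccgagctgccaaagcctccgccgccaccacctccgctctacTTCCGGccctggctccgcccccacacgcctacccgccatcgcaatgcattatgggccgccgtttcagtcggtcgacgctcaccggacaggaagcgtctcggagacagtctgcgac
ERG: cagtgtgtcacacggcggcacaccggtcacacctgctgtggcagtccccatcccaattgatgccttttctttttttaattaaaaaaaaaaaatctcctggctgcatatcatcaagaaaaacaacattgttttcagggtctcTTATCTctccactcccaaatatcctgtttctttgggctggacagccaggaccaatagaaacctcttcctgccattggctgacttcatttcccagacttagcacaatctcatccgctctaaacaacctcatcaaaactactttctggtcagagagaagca
SPIB: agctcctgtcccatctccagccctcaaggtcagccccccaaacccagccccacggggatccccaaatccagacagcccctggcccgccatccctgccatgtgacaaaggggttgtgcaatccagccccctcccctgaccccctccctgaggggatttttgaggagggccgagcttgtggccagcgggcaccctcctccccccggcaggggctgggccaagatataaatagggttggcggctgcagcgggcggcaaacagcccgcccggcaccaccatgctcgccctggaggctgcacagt
The remaining promoters add an ELF1 start at chr13:40982850-40983149 (minus strand) with 2 GATA matches, TGATAA at -216 to -211 bp and AGATAA at -17 to -12 bp, whereas the other ELF1 and ERG starts and that of ETV6 hold no match. In all, 3 of the 10 promoters held GATA letters and 1 the letters CCGGAA. A match is a description of letters and was not tested for binding.

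GABPA encodes the DNA-binding subunit of GABP, an ETS factor made in most tissues. The array annotates its 21 probes only upstream, from -6268 to -156 bp, and beyond them lie probes of ATP5J, a gene of the mitochondrial ATP synthase that is transcribed away from GABPA. The 3 probes of the highest window, at chr21:26029289-26029612, read 1.75, 1.86 and 1.42, and the last of them is annotated to ATP5J. Their processed IP intensities were 14872, 7828 and 11414, and the IgG intensities 4407, 2140 and 4237. All 3 probes thus pointed the same way at bright spots, with a mean intensity at percentile 96.7 of the array. The enriched region joined 6 windows and 8 probes between 0.46 and 1.86. It extended from -839 bp across the interval toward ATP5J, so the signal cannot be assigned to either gene alone. Probes farther upstream, between 6000 and 2000 bp from the start, averaged -0.08 ± 0.53 (SD, n = 9 probes), so the IP excess was near the start. No GABPA window was IgG-side, the lowest being -0.58 at -5426 bp.

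SPI1 encodes PU.1, the ETS factor of myeloid and B cells. Its highest window, at chr11:47356725-47357000 and 186 bp upstream of the start, held probes at 1.81, 1.16 and 1.52. Their processed IP intensities were 8755, 12184 and 6711, against IgG intensities of 2493, 5425 and 2333. The window was as bright as that of GABPA, at intensity percentile 95.7. The region around it spanned -705 to 216 bp with 6 enriched windows, and each of its 8 probes was above 0, from 0.67 to 1.81. Probes within 500 bp of the start averaged 1.11 ± 0.37 (SD, n = 8 probes) and those between 500 and 3000 bp downstream 0.32 ± 0.34 (SD, n = 10 probes), so the level declined into the gene. Far upstream, a single window at -4504 bp reached -1.16. Its probes read -0.55, -0.74 and -2.19, so that the last probe alone carried it past -1. It was above -1 when the trend on distance was removed (-0.96), in windows of 5 probes (-0.92) and after normexp background correction (-0.66).

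ERG, a close relative of FLI1 that acts in blood stem cells and endothelium, is represented at 2 annotated starts with unlike profiles. The promoter printed with its TTATCT letters was not placed on either of them. The start of NM_182918 had 38 probes, 4 enriched and no IgG-side windows. Its highest window, at chr21:38791916-38792419 and centered 66 bp inside the gene, held 3 probes of at least 1.35 each around a mean of 1.45, with an SD of 0.09. The processed IP intensities were 9033, 2897 and 10506, and the IgG intensities 3193, 1133 and 3693. The enriched region ran from -412 to 592 bp at intensity percentile 93.0. The start of NM_004449, with 35 probes, had 3 enriched and 8 IgG-side windows. Its enriched windows were inside the gene, from 1133 to 1887 bp, and the highest of them, at chr21:38953690-38954113, was the highest of all ERG windows (1.69). That window rested largely on its middle probe, with values of 0.53, 3.00 and 1.55, and with an IgG intensity of 192 at the middle probe against 1015 and 1231 beside it. Upstream of the same start, 8 probes from -2109 to -723 bp were all below 0, between -1.80 and -0.59, and formed 6 IgG-side windows down to -1.54.

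FLI1 encodes an ETS factor required for platelet formation, and it showed the widest range of the 8 genes. At its start, the window centered at -46 bp (chr11:128068845-128069337) read 2.36, 2.12 and 1.36. The processed IP intensities were 778, 883 and 2741, against IgG intensities of 151, 202 and 1063. The mean intensity percentile of the window was 40.6, lower than at GABPA, SPI1 and the NM_182918 start of ERG, with the first pair of probes at 20.3 and 25.8 and the last at 75.8. The 4 enriched windows at the start ran from -673 to 329 bp. After normexp background correction, which starts from the raw signals, the highest of them was 1.10 in place of 1.95.

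Farther upstream, the FLI1 promoter alternated in sign. An enriched region of 5 probes at -5389 to -4275 bp was followed by 7 probes from -3703 to -2852 bp that were all below 0, between -2.86 and -0.66. A second enriched region of 5 probes followed at -2653 to -1701 bp, with a highest window of 1.69. The IgG-side region lay 527 bp from the first and 147 bp from the second, so both gaps were shorter than the 1000 bp that bound the average fragment size from above. The highest FLI1 window (2.24, chr11:128063784-128064449) was at percentile 95.2 of all gene maxima on chIP2, but its probes read 0.95, 1.46 and 4.31. The last of these had an IP intensity of 771 and an IgG intensity of 38.7, at intensity percentile 8.55, and all 3 windows of that region contained it. After normexp correction the highest FLI1 window anywhere was 1.22, and in windows of 5 probes it was 1.48. The lowest FLI1 window (-2.20, chr11:128065595-128065907) rested on more even probes, at -1.93, -2.86 and -1.80, with IgG intensities of 764, 3467 and 2385 against IP intensities of 201, 479 and 687.

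ETS1, the founding member of the family and prominent in lymphoid cells, had no enrichment at its start, where 5 probes averaged -0.33 ± 0.30 (SD). It had 3 enriched windows, each standing alone, at -3622, -1672 and 1202 bp. The probes of the highest (1.23, chr11:127900845-127901336) read 0.91, 2.69 and 0.10, and the middle probe had an IP intensity of 322 and an IgG intensity of 49.7. Only 121 bp from it lay the lowest ETS1 window (-1.25), with probes at -0.76, -1.70 and -1.30. Opposite calls thus stood side by side at ETS1 within less than the length of a fragment. The mean intensity percentiles of these windows were 16.8 and 25.3, and after normexp correction the gene passed neither limit, with a highest window of 0.72 and a lowest of -0.74. The 9 ETS1 probes between 2000 and 500 bp upstream, which include the 3 of the window at -1672 bp and its highest probe of 2.34, were all above 0.47, with a mean of 0.88 ± 0.60 (SD).

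ETV6 encodes a transcriptional repressor needed for blood stem cells and platelets. It had 5 enriched windows and no IgG-side window, but the enrichment lay on both sides of the start and not at it. The upstream region spanned -2138 to -828 bp with 7 probes between -0.62 and 2.63, and the downstream region 757 to 1256 bp with 4 probes between 0.70 and 1.47. In the highest window (1.24, chr12:11692710-11693049) the probes read 0.56, 1.47 and 1.68, with IP intensities of 399, 1430 and 933 and IgG intensities of 269, 515 and 289. Between the regions, 5 probes within 500 bp of the start averaged 0.28 ± 0.33 (SD). The intensity percentiles of these 5 probes ran from 4.43 to 37.7, and the means of the upstream and downstream regions were 37.3 and 47.6. After normexp correction the highest ETV6 window was 0.86, below the limit.

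ELF1 and SPIB had no enriched window. ELF1, an ETS activator of blood and endothelial genes, was low over most of its 46 probes (-0.46 ± 0.77, SD), and this mean was at percentile 10.6 of the genes on chIP2. It had 7 IgG-side windows in 2 regions, one inside the gene at 891 to 2393 bp and one upstream at -1733 to -1142 bp. The lowest window (-1.42, chr13:40455649-40455929) read -1.13, -1.75 and -1.37, with IgG intensities of 965, 1226 and 844 against IP intensities of 441, 366 and 329. Between these regions, at -458 bp, lay the highest ELF1 window of 0.86, with probes at 1.05, 0.91 and 0.63. SPIB encodes a B-cell relative of PU.1, and its windows lay between -0.49 and 0.75. Neither the 7 probes within 500 bp of its start, at 0.00 ± 0.42 (SD), nor 10 probes 8669 to 9996 bp inside the gene reached the limit in any window.

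**Figure D2:**
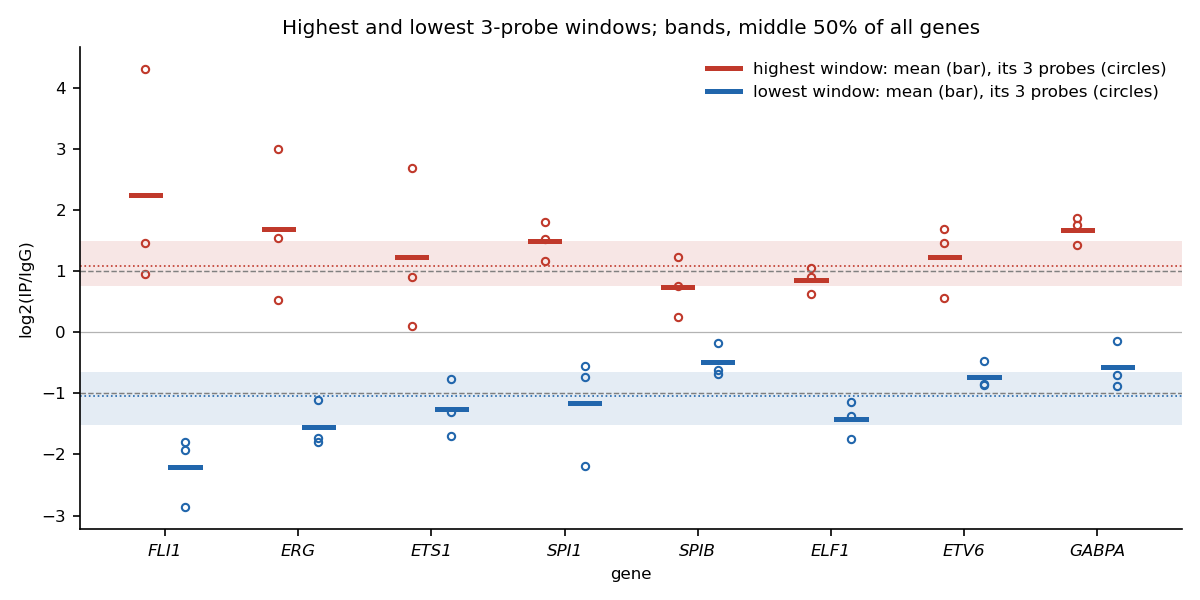
Highest (red) and lowest (blue) 3-probe window of each gene as log2(IP/IgG), with the window mean as a bar and its 3 probes as circles; shaded bands span the middle 50% of all 17054 genes with a window, and dotted lines are their medians (1.09 and -1.05). Among the highest windows, the 3 circles lie close together at SPI1 and GABPA, whereas at FLI1, ERG and ETS1 a single high probe stands apart.

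Counted over whole loci, the shares of genes called were near those of all genes on the arrays. An enriched window was found at 6 of 8 genes, against 57.1% of all 17054 genes with a window and 65.7% of the 11241 genes with at least 19 windows. An IgG-side window was found at 5 of 8 genes, against 52.9% and 63.3%. FLI1, ERG, ETS1 and SPI1 had both kinds and SPIB had neither. The median highest window was 1.37 against 1.09 over all genes, and the median lowest -1.21 against -1.05. The medians over all genes were not matched for the number of windows per gene. Of the 284 windows, 37 (13.0%) were enriched and 23 (8.10%) IgG-side, against 7.62% and 9.65% of all 415403 windows. With a stricter reading, in which each of the 3 probes had to pass the limit, 7 windows at FLI1, ERG, SPI1 and GABPA were enriched (2.46%, against 1.66% of all windows). By the same reading 8 windows at FLI1, ERG and ELF1 were IgG-side (2.82%, against 3.24%). No replicate exists against which these shares could be tested.

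Position and brightness moved with these calls. Over all probes of the arrays, the mean was 0.26 within 500 bp of a start but -0.19 between 6000 and 2000 bp upstream. The 8 genes had 0.58 ± 0.78 (SD, n = 51 probes) and -0.29 ± 0.99 (SD, n = 92 probes) in these zones. When the array-wide trend on distance was removed, the near-start windows of FLI1, GABPA, SPI1 and ERG were 1.71, 1.44, 1.25 and 1.21, still at or above 1 in each gene. After loess on intensity within each array, the highest near-start windows were 2.02, 1.46, 1.295 and 1.30 in the same order. The share of all genes called after either step was not computed. Of windows whose 3 probes averaged at or above intensity percentile 90, 11.1% were enriched on the arrays. At the 8 genes 9 of 16 such windows were enriched, 3 each at ERG, SPI1 and GABPA. The 3 windows of each gene overlap one another, so the 9 are far fewer than 9 separate measurements. The scatter of single probes was far greater at dim spots: on chIP2 the SD was 1.56 in the dimmest 10% of probes and 0.54 in the brightest 10%. The part of brightness and of base composition in the calls was not tested.

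**Figure D3:**
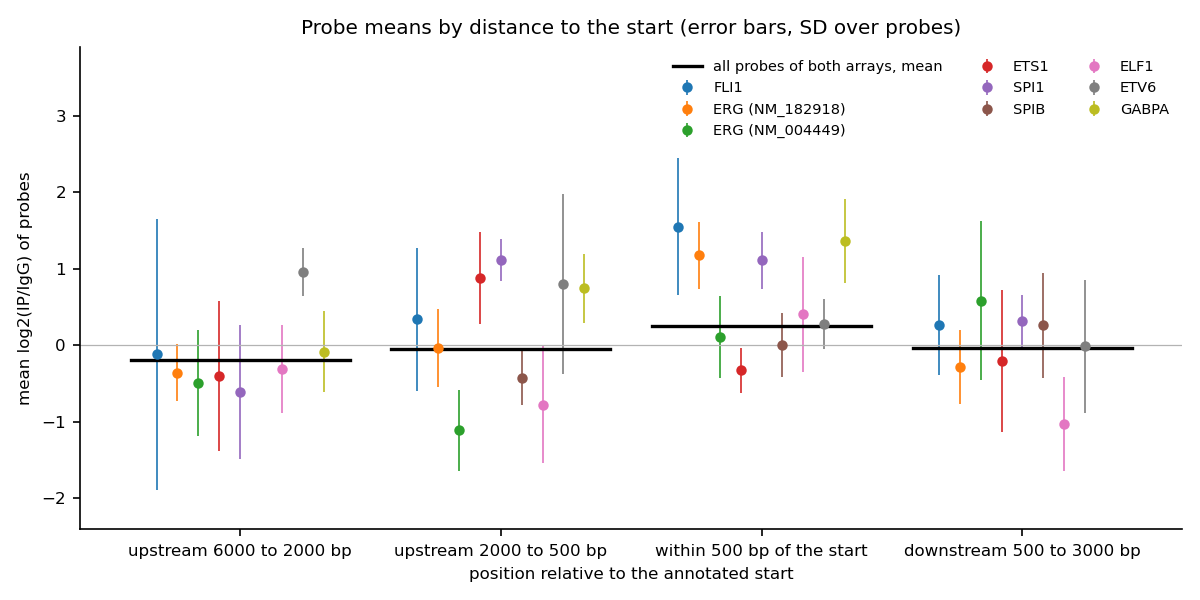
Mean log2(IP/IgG) of each gene's probes (colored points) in 4 zones of distance to the annotated start, with error bars for the SD over probes of that gene and black lines for the mean of all probes of both arrays. The 2 annotated starts of ERG are drawn apart. Within 500 bp of the start, FLI1 (1.55), GABPA (1.37), the NM_182918 start of ERG (1.18) and SPI1 (1.11) lie farthest above the array mean of 0.26, and the NM_004449 start of ERG (0.11), SPIB (0.00) and ETS1 (-0.33) lie below it.

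**Figure D4:**
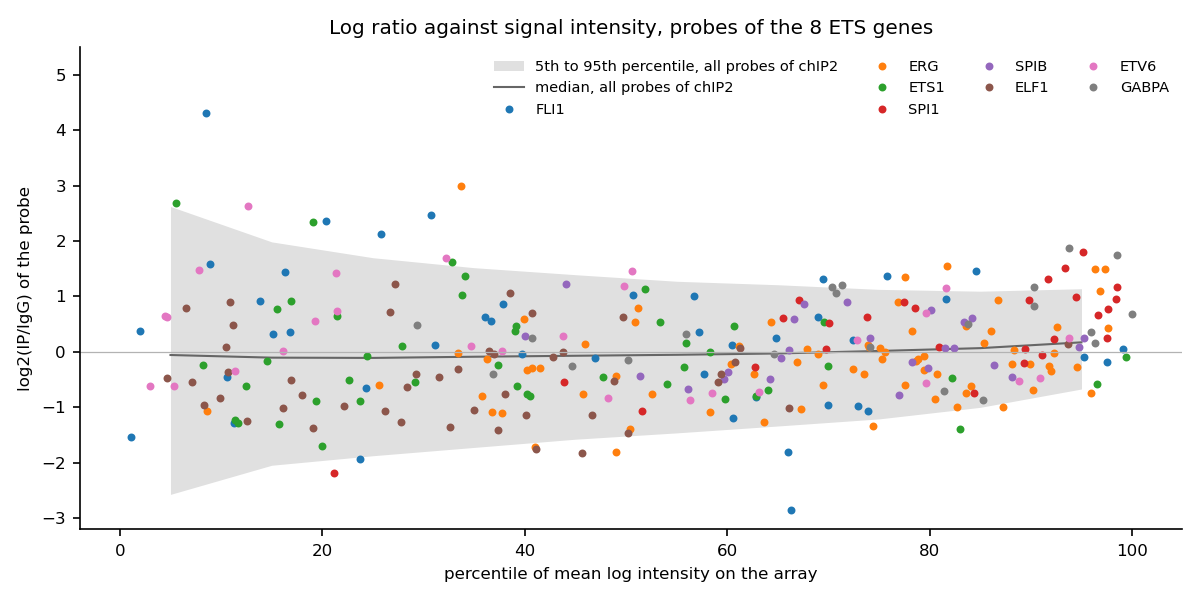
Log2(IP/IgG) of each probe of the 8 genes against the percentile of its mean log intensity on chIP2; the grey band runs from the 5th to the 95th percentile of all probes in each step of 10 percentiles and the line is their median. The FLI1 and ETS1 probes above 2 lie between percentiles 5.54 and 30.7, although FLI1 probes between 1 and 2 reach percentile 84.5, and the SPI1 and GABPA probes above 1 lie between percentiles 70.4 and 98.5.

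In order of the near-start level, the first genes were FLI1 (1.95 ± 0.52, SD over 3 probes), GABPA (1.68 ± 0.23), SPI1 (1.49 ± 0.32) and ERG (1.45 ± 0.09). ELF1 (0.86 ± 0.22) came next. This order changed with the processing. After normexp background correction the near-start values were 1.10 at FLI1, 1.78 at GABPA, 1.62 at SPI1 and 1.54 at ERG. Each SD is a spread between neighboring probes of the same hybridization, so whether these genes differ was not tested. Expression levels cannot be read from these values.

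The rest of the family was read in the same way. Of 22 further genes, comprising the other human ETS factors and the partners of GABPA, 20 were found on the arrays. ETV3L and GABPB1 were not found under these names and were not analysed here. An enriched window was present at 13 of the 20 genes and an IgG-side window at 10, against the same 57.1% and 52.9% of all genes. The median highest window was 1.20 and the median lowest -0.97, so that both medians were nearer to 0 than those of the 8 blood factors (1.37 and -1.21). The highest windows belonged to ETV4 (2.01 at -5226 bp) and ELK4 (2.01 at -3270 bp), and the lowest maximum to ETV7 (0.30). FEV, ELF2, ELF5, EHF, ETV1 and SPIC were called in both directions. Of 644 windows, 36 (5.59%) were enriched and 46 (7.14%) IgG-side, compared with 13.0% and 8.10% at the 8 genes.

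**Figure D5:**
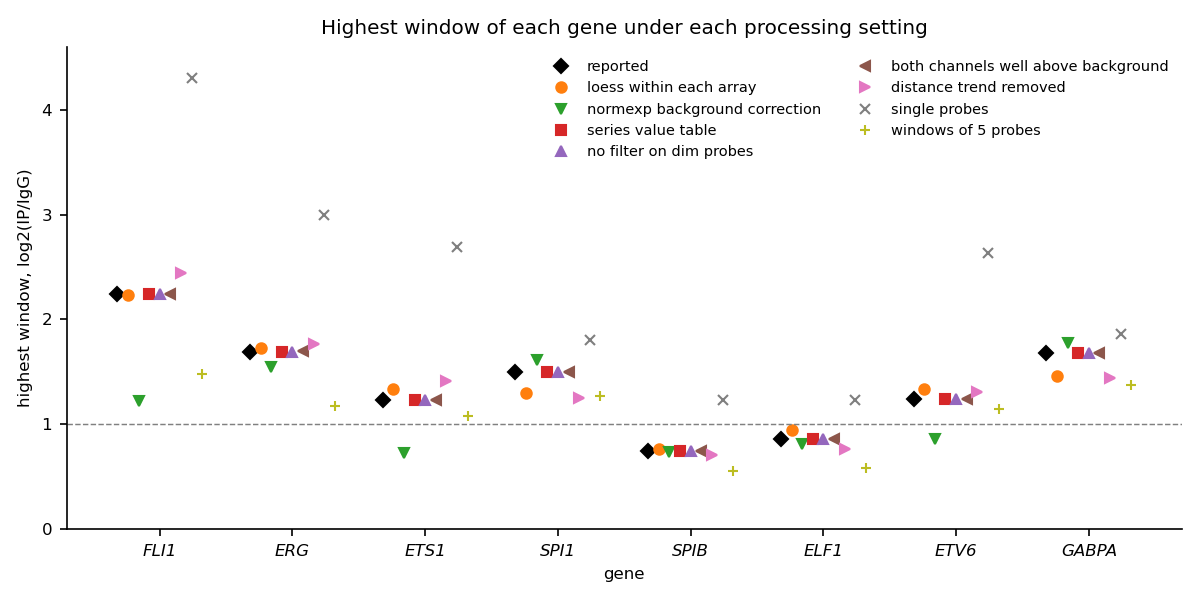
Highest window of each gene as log2(IP/IgG) under the reported setting (black diamonds) and 8 other ways of processing; the dashed line marks 1. SPI1, GABPA, ERG and FLI1 stay above the line in each setting, ETS1 (0.72) and ETV6 (0.86) fall below it after normexp background correction, and SPIB and ELF1 (1.23 each) pass it only as single probes.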

How the data were processed

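The authors deposited the scanner output of 2 Agilent arrays. Per the file headers, the processed intensity values came from Agilent Feature Extraction 9.5.3.1, dye-normalized, and the deposited log10 ratio has the IP (Cy5) over the IgG (Cy3). The deposited value table holds the same log10 ratios. The study's intra-array lowess, inter-array median normalization, Whitehead error model and peak shape step were not run here.

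The value of a probe was log2 of processed IP over processed IgG intensity, less the array median. Control spots, non-uniformity outliers and probes that neither channel placed well above background were removed. Windows held 3 adjacent probes with neighbors within 1000 bp, were called at 2-fold, and were joined into regions within 1000 bp. A window counted for a gene when any of its probes was annotated to that gene. The members and lists were chosen with earlier results of these data known. All 8 genes are named. Of the other ETS genes, those with the highest and lowest maximum and those called in both directions are named. Precision is limited by the number of arrays, and no test was run.

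Alternatives were loess with a span of 0.3, normexp with an offset of 50, the value table, no filter on dim probes, both channels well above background, single probes, windows of 5 probes, removal of the trend on distance in steps of 500 bp, and limits of 1.5-fold and 3-fold. The reading within 500 bp of a start was not among the results planned beforehand. Its values under these alternatives were run only after the data had been seen. The window code was tested on simulated data. Tools were Python 3.11.15, numpy 2.4.6, pandas 2.3.3, R 4.3.3 and limma 3.58.1.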

Additional observations from a re-analysis of the deposited data

How the results depend on the processing

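The highest and lowest windows of each gene were found anew under each alternative, and single windows were not followed across them. No highest or lowest window that passed 2-fold changed its sign. A maximum or minimum over several windows could hardly do so, so this does not show that single windows kept theirs. Genes with an enriched window numbered 4 after normexp background correction and 3 at 3-fold in place of 6. They numbered 8 as single probes and at 1.5-fold. Genes with an enriched window within 500 bp of a start numbered 2 at 3-fold in place of 4, and 5 as single probes and at 1.5-fold. Genes with an IgG-side window numbered 2 after normexp background correction and 1 at 3-fold in place of 5. Enriched windows (37) numbered 20 after normexp, 69 at 1.5-fold and 8 at 3-fold. IgG-side windows (23) numbered 5 after normexp, 38 as single probes, 67 at 1.5-fold and 3 at 3-fold. The shares of all genes and of all windows called under these alternatives were not computed, so these counts have no array-wide comparison. The median highest window ranged from 1.04 to 2.25. For single genes, the highest window stayed on its side of 2-fold in 60 of 64 values, the lowest in 59 of 64 and the highest near the start in 63 of 64. The mean of all probes kept its sign in 46 of 48 values. These tallies include settings that could hardly move a value. The value table holds the same ratios, and the filters on dim probes changed almost none of the probes of these genes. Normexp moved 2 highest and 3 lowest windows and single probes 2 highest. Removal of the distance trend and windows of 5 probes moved 1 lowest each. Among the lowest windows, those of ETS1 (-0.74), SPI1 (-0.66) and ELF1 (-0.997) were above -1 after normexp. The causes were not tested. Median signals on chIP2 were 544 (IP) and 440 (IgG), beside 340 and 303 for negative control spots. No paired analysis was possible because each probe was measured once and no test over samples was run.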
